A study of Arabidopsis thaliana with 625 samples.

Results

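The 43 genes described here are heat shock proteins, co-chaperones and heat shock factors of Arabidopsis thaliana, chosen by gene name from 32833 genes and measured in single cells of seedling aerial tissue. They comprised 15 small heat shock proteins (HSPs), 6 cytosolic HSP70 genes, 2 HSP70 genes of the endoplasmic reticulum (ER), 4 HSP90 genes, 2 HSP100 genes, 6 co-chaperones and related genes, and 8 heat shock factors with their co-activator. From textbook knowledge, 32 of them were classed as heat-inducible and 11 as constitutive. The cells came from plants 10 days post-germination carrying either ATML1p::YFP-RCI2A, a membrane marker driven by an epidermal promoter, or TMMp::TMM-YFP, a fluorescent fusion of the stomatal-lineage receptor TMM under its own promoter. Each line had 2 pools, with 42 and 101 cells of ATML1p and 142 and 336 cells of TMMp, sorted on 12 plates. No mutant, heat treatment or unsorted control was among the labels, so every comparison is between lines, pools or cells. Sort plates ML1 and ML2 held ATML1p pool 1, plates ML1-5, ML1-6 and ML1-7 its pool 2, plates TMM-1 and TMM-2 TMMp pool 1, and plates TMM3 to TMM7 its pool 2.

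In plants, heat or other conditions that unfold proteins release heat shock factors of class A1, which switch on HSFA2, MBF1C and the chaperone genes. Small HSPs hold unfolding proteins, HSP70 and HSP90 with their co-chaperones refold or mature them, and HSP101 pulls apart aggregates. Heat shock cognate proteins and the ER chaperones BIP1 and BIP2 do related work in cells that are not stressed.

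Expression was given as TPM, which are scaled for transcript length and sum to nearly the same total in every cell, at least 988204 TPM over the genes used. Genes detected per cell, counted from a TPM of 1 upwards, had a median of 3179 in ATML1p and 2777 in TMMp, with a range from 377 to 10726, and read depth itself was unknown. The pool means of TMM were 36.2 and 24.0 TPM in ATML1p, against 1385 and 1063 TPM in TMMp. The epidermal gene PDF1 was detected in 278 of 478 TMMp cells but only 15 of 143 ATML1p cells, although the ATML1 promoter marks the epidermis. The summed level of 15 mesophyll genes had plate medians of 1413 to 21910 TPM in ATML1p and 1655 to 2344 TPM in TMMp, and all 15 were lower in the TMMp pools at an adjusted p under 0.05 with limma. The summed level of 7 epidermal genes, PDF1 among them, had plate medians of 0 to 37.1 TPM in ATML1p and 382 to 907 TPM in TMMp.

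The upstream sequences of 6 members are shown because heat shock factors bind repeats of the unit GAA and its reverse TTC. Each window holds the 250 bases before the gene's start in the RefSeq annotation of TAIR10.1, written 5′ to 3′ on the gene's strand. Capitals mark matches of 3 alternating units, GAANNTTCNNGAA or TTCNNGAANNTTC. HSP17.4, a cytosolic small HSP (chr3:16984868-16985117, minus strand), and HSFA7A, an inducible factor (chr3:19264891-19265140, plus strand), each held 2 such matches and were chosen after the motifs had been counted.
HSP17.4: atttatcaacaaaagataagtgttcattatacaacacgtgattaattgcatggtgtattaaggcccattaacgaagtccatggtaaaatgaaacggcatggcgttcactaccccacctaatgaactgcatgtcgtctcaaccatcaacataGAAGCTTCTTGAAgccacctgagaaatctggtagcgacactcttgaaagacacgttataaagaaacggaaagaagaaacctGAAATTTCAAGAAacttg
HSFA7A: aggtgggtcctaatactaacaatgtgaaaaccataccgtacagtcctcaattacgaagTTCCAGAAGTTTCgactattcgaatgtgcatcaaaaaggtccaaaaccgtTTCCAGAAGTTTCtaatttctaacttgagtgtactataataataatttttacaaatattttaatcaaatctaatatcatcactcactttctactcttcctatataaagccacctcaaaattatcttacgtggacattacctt
By contrast, the inducible members most often detected in TMMp cells that had a window free of other genes, ROF1 (chr3:9187846-9188095, plus strand) and HSP70 (chr3:3993887-3994136, minus strand), had none of these letters.
ROF1: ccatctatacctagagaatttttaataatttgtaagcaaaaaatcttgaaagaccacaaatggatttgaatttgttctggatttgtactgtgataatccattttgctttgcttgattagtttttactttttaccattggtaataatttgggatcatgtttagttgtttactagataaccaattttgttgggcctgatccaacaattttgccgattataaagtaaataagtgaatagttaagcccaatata
HSP70: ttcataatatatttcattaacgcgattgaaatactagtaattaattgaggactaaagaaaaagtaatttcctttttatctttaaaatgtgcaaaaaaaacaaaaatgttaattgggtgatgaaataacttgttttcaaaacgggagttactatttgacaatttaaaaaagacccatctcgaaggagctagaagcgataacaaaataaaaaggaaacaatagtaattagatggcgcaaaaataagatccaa
The constitutive HSC70-1 (chr5:556624-556873, minus strand), the most detected of its class, and BIP2 (chr5:16810694-16810943, minus strand), an ER chaperone chosen after its values were seen, also had none.
HSC70-1: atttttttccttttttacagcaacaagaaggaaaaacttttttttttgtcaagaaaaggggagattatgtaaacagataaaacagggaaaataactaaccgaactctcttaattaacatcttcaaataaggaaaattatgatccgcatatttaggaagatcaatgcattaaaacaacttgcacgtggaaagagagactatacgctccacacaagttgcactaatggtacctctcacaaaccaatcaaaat
BIP2: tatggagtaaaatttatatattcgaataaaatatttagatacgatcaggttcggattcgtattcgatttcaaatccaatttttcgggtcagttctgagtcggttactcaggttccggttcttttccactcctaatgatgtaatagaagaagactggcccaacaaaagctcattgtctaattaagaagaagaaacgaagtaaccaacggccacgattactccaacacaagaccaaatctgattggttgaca
A match of 2 units, GAANNTTC or TTCNNGAA, both of which read the same on either strand, was present in 13 of 32 inducible windows (40.6%), 1 of 11 constitutive windows (9.09%, CLPB3) and 16.2% of the windows of 27438 genes. The 3-unit form, whose matches contain the 2-unit form, was present in 5 inducible windows (15.6%: HSP17.4, AT1G53540, HSFA2, HSFA7A and HSFA7B), no constitutive window and 0.386% of all windows. MBF1C was the most detected inducible member, but its window lay inside the neighbouring gene AT3G24495 and is not printed.

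Small HSPs made up most of the inducible transcript pool. They held 65.4% and 57.3% of the summed mean TPM of the inducible members in ATML1p pools 1 and 2, and 52.4% and 63.2% in TMMp pools 1 and 2. HSP17.6A, a class II cytosolic small HSP, averaged 1634 and 2053 TPM in ATML1p pools 1 and 2, against 2196 and 6748 TPM in TMMp. AT1G07400, a class I small HSP, averaged 1410 and 2401 TPM against 2198 and 6229 TPM. The lowest small HSPs were detected in few cells: AT1G52560, a mitochondrial type, had plate means of 0 to 67.5 TPM in TMMp and HSP18.2 of 46.7 to 159 TPM, and for each of them the highest 10% of TMMp cells held 100% of the summed TPM.

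The cytosolic HSP70 gene AT3G12580, named HSP70, averaged 1593 and 2868 TPM in ATML1p, against 3438 and 5558 TPM in TMMp, so that HSP17.6A and AT1G07400 were higher than it in TMMp pool 2 and lower in TMMp pool 1. HSC70-1, its constitutive relative, averaged 503 and 763 TPM against 1174 and 1523 TPM, and was detected in 88.4 to 96.8% of the cells of each TMMp plate. Inducible HSP90.1 averaged 646 and 1243 TPM against 841 and 2606 TPM, whereas constitutive HSP90.2 averaged 202 and 374 TPM against 550 and 826 TPM. HSP90.1 was detected in 33.3 to 76.2% of the cells of a TMMp plate and HSP90.2 in 75.4 to 93.7%, so in TMMp the inducible form was higher on average and detected in fewer cells. HSP90.2, HSP90.3 and HSP90.4 share 18.0 to 23.9% of their stretches of 50 bases with other genes, as do BIP1 (22.9%) and BIP2 (23.0%), and their separate levels are therefore uncertain. HSP17.4 shares 61.5%, mostly with AT3G07365, an RNA annotated on the opposite strand. HSFB2B (18.6%), AT3G09440 (16.0%) and MBF1C (16.0%) also share stretches, mostly with genes that overlap them, so their levels are uncertain too.

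The regulators were expressed at very different levels. MBF1C, a transcriptional co-activator of the heat response, averaged 574 and 751 TPM in ATML1p, against 718 and 1256 TPM in TMMp. HSFA2, the inducible amplifier of the response, averaged 99.1 and 144 TPM against 167 and 423 TPM. HSFA1A, a constitutive factor of the class that starts the response, averaged 5.25 and 4.51 TPM against 24.1 and 13.2 TPM. HSFA7B was close to 0, with pool means of 0 and 1.14 TPM in ATML1p and 1.31 and 1.01 TPM in TMMp. Of the class B factors, known as repressors of the response, HSFB1 and HSFB2A lay between 51.8 and 231 TPM and HSFB2B between 16.7 and 82.8 TPM in the 4 pools.

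The inducible transcripts were unevenly spread over the cells. The summed TPM of the 32 inducible members had a median of 877 TPM over ATML1p cells and 22144 TPM over TMMp cells, and the highest cell, in TMMp, reached 242908 TPM, or 24.3% of its transcripts. The plate medians in ATML1p were 286 TPM on ML1, 590 TPM on ML2, 488 TPM on ML1-5, 5061 TPM on ML1-6 and 1342 TPM on ML1-7. Those in TMMp were 3253 TPM on TMM-1 and 8507 TPM on TMM-2, and 37398, 31948, 49740, 28938 and 32265 TPM on TMM3 to TMM7. Both lines held cells with little and cells with very much, since 12 ATML1p cells and 1 TMMp cell were at 0 while 10 and 78 cells were over 100000 TPM. The plates of the lines overlapped, with TMM-1 below ML1-6, and the 5 plates of TMMp pool 2 lay above all others. The 11 constitutive members moved less, with plate medians of their summed TPM of 1686 to 2750 TPM in ATML1p and 4370 to 9303 TPM in TMMp. The highest 10% of cells held 54.1% of the inducible TPM in ATML1p and 33.6% in TMMp. As single genes, HSC70-1 and AT3G09440, the constitutive members detected in most cells, had 32.6 and 42.1% in ATML1p and 32.3 and 32.2% in TMMp. In TMMp the inducible sum was therefore about as concentrated as these genes.

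**Figure D1:**
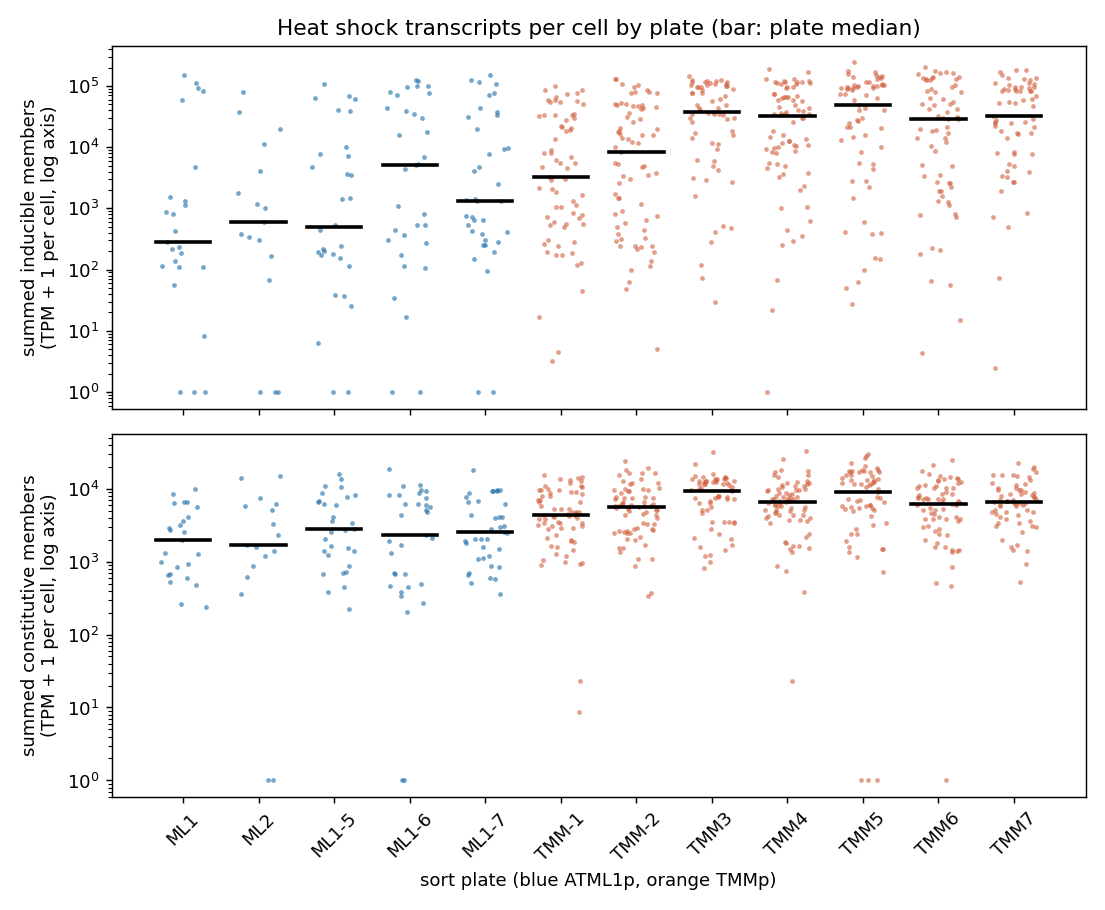
Summed TPM of the 32 inducible members (upper) and the 11 constitutive members (lower) per cell on each of the 12 sort plates, on a log scale, with each point a cell and each bar the plate median. Inducible plate medians ran from 286 TPM on ML1 to 49740 TPM on TMM5, and single cells on most plates spanned from near 0 to over 10000 TPM.

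Within TMMp plates the inducible members rose and fell together from cell to cell. All 351 pairs of the 27 inducible members found in 10% or more of the TMMp cells had a rank correlation above 0, with a median of 0.50 as the mean over 7 plates of 63 to 76 cells. The highest pair was HSP70 and HSP101, at 0.83. With the summed TPM of the other inducible members MBF1C had the highest correlation (0.85), followed by AT1G07400 (0.85) and HSP101 (0.84), and HSFB2B (0.38), HSFA7A (0.38) and HSP23.6-MITO (0.40) had the lowest of the inducible members. AT3G09440, an HSP70 gene classed here as constitutive, was as closely tied to the inducible set (0.70) as HSFA2 (0.70). HSFA1A (0.05) and HSP90.4 (0.10) were scarcely related to it. BIP1 and BIP2 ran the other way, with all 54 of their pairs with inducible members below 0 (median -0.25) and 0.51 with each other. The cells of a plate share libraries made together, and TPM have nearly the same total in each, so these values are descriptions without a test.

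**Figure D2:**
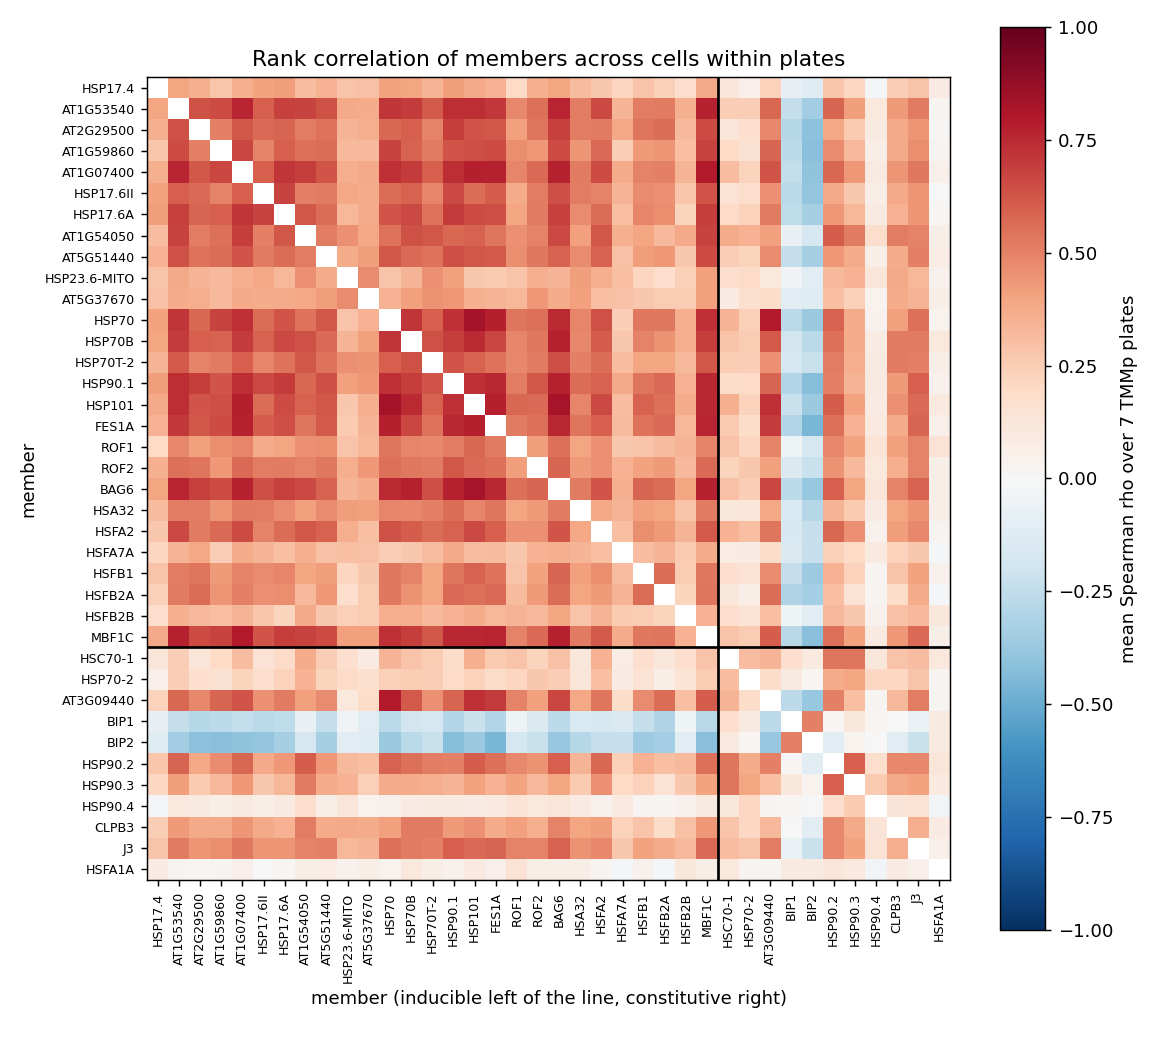
Mean within-plate Spearman correlation over the 7 TMMp plates between the 38 members found in 10% or more of these cells, in colour. The inducible members form a block of positive values, and BIP1 and BIP2 are negative with every inducible member.

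Of 9385 other genes found in 10% or more of the TMMp cells, the 10 with the highest mean within-plate correlation with the summed inducible TPM were led by AT3G04685 (0.87) and AT1G74300 (0.85). AT3G04685 is an antisense RNA that lies within MBF1C, and AT1G74300 overlaps HSP101 on the opposite strand by 101 bases. Smart-seq2 does not mark the strand of a read, so the values of AT3G04685 cannot be told apart from those of MBF1C. For AT1G74300 this holds only for reads from the 101 overlapping bases, and most of that gene lies outside them. The next were HOP3 (AT4G12400, 0.79), a co-chaperone that links HSP70 and HSP90, AT1G14200 (0.76), AT3G10020 (0.75), AT5G35320 (0.73), AT4G15420 (0.71), APR3 (0.71), AT1G30070 (0.70) and TIL (0.69), a temperature-induced lipocalin. The median over the 9385 genes was -0.06 and 34.5% of them were above 0.

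Comparison of the lines asked whether cells sorted on the epidermal and the stomatal-lineage reporters differ in these genes. Over pools, 1 member was higher and 1 lower in TMMp than in ATML1p, both small HSPs, at an adjusted p under 0.05 with limma on log2(mean TPM + 1). The background was 0.462% of 18390 genes higher and 1.88% lower. HSP18.2 averaged 10.3 and 2.46 TPM in ATML1p, against 68.8 and 102 TPM in TMMp, without overlap, and was higher by 3.77 ± 0.64 log2 (SE, 2 pools against 2, limma adjusted p 0.0322). AT1G52560 averaged 127 and 286 TPM against 7.60 and 28.1 TPM, also without overlap of the pools, and fell by 3.60 ± 0.64 log2 (limma adjusted p 0.0369). Its plate means did overlap, at 0 to 574 TPM in ATML1p and 0 to 67.5 TPM in TMMp. Both results rest on few cells: AT1G52560 was detected in 9 ATML1p and 14 TMMp cells, and HSP18.2 in 4 and 41. Of the 43 members 37 had a higher mean in TMMp, with a median difference of 1.03 log2 against 0.32 for all genes. All 11 constitutive members were above 0 (median 1.29), and 26 of 32 inducible members were (median 1.00). Since the median of all genes was also above 0, more of all genes lay above 0 than below.

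Most members missed the threshold with 2 pools a line, which does not show that they did not differ. In the HSP70 group, HSP70B averaged 200 and 284 TPM in ATML1p against 464 and 1147 TPM in TMMp (1.61 ± 0.45 log2, limma adjusted p 0.110), and HSP70-2 had a difference of 1.51 log2 while HSP70T-2 had 0.29 log2. Among HSP90 genes the differences ran from 0.72 log2 for HSP90.1 to 1.44 log2 for HSP90.3. BIP2 averaged 62.4 and 135 TPM against 400 and 271 TPM (1.83 ± 0.43 log2, limma adjusted p 0.0739), with BIP1 at 1.56 log2. The HSP100 genes HSP101 and CLPB3, a chloroplast relative, differed by 1.22 and 1.16 log2. Of the co-chaperones and related genes, BAG6 (1.31 log2) and FES1A (1.09 log2), which binds HSP70, differed most and HSA32 (0.32 log2) least. HSFA1A (1.69 log2) and HSFB2B (1.45 log2) led the factors, HSFA2 differed by 1.15 log2 and MBF1C by 0.53 log2, and HSFB1 (-0.27 log2) was lower in TMMp. AT5G37670, a peroxisomal small HSP, was the member with the smallest difference (0.03 log2).

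**Figure D3:**
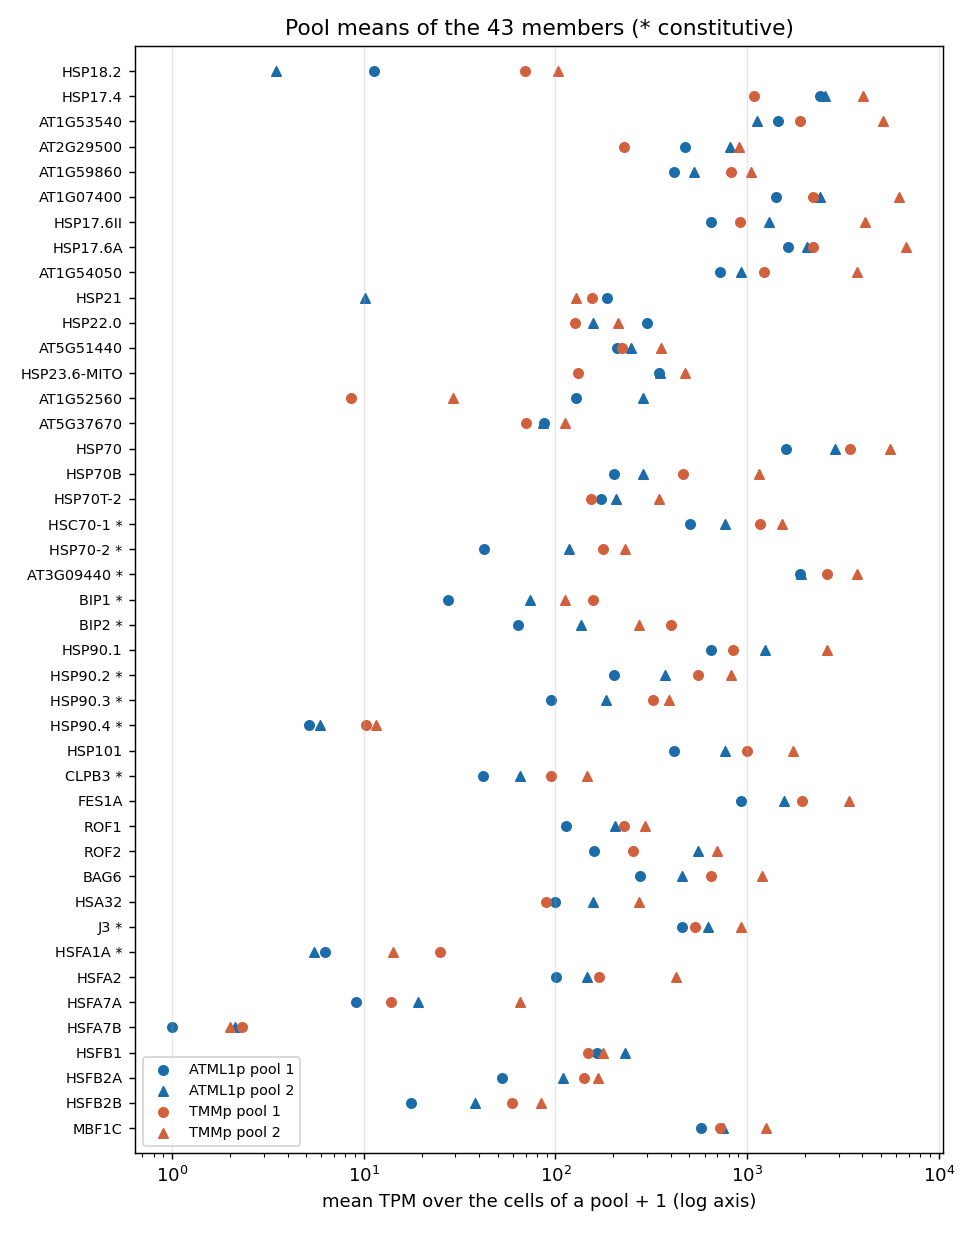
Mean TPM over the cells of each of the 4 pools for the 43 members, on a log scale, with ATML1p and TMMp pools in separate colours. HSP18.2 and AT1G52560 are the 2 members whose line difference passed the threshold.

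Plates and lines cannot be told apart, because each plate held 1 line. With plates in place of pools as the unit, 27 members were higher and 0 lower (background 9.00% higher and 6.15% lower). That count was 29 without TMMp pool 1 and 0 without TMMp pool 2, and all genes called in these settings are counted under the dependence on processing. Over pools, HSP18.2 was no longer called without plate ML2 (0 members higher, 1 lower). Cells with at least 10 of the 15 mesophyll genes at a TPM of at least 10 made up 41.3% of ATML1p and 22.0% of TMMp cells. Their median summed inducible TPM was 216 TPM in ATML1p, against 4564 TPM in the other ATML1p cells, and 4406 TPM in TMMp, against 32178 TPM in the others. No member was called between lines with these cells left out, or with any 1 of the 4 pools left out and the gene set unchanged. With genes filtered again the number of members called varied with the pool left out, and each such fit had 1 pool in a line.

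More TMMp than ATML1p cells had members detected at all. Of 40 members tested, 12 were detected in a larger share of TMMp cells and 0 in a smaller one, by a two-sided exact permutation test over the 5 ATML1p and 7 TMMp plates with adjustment over 13498 genes. The background was 3.54% of genes with a larger and 5.25% with a smaller share. The test treats plates as exchangeable, although plates of the same pool can be alike. HSP101, for one, was detected in 53.6 and 63.0% of cells on TMM-1 and TMM-2, and in 80.0 to 88.9% on TMM3 to TMM7. The p-values may therefore overstate the evidence, and no whole pool was left out in this test. MBF1C was detected in 65.2% ± 15.2 of ATML1p cells (SD, 5 plates) and 85.6% ± 5.41 of TMMp cells (SD, 7 plates; exact permutation adjusted p 0.0250). HSP101 was detected in 43.2% ± 11.6 against 76.9% ± 13.3 of cells, and the ER chaperone BIP2 in 41.1% ± 8.79 against 69.1% ± 10.1 (exact permutation adjusted p 0.0431 and 0.0250). The small HSP with the largest gap was AT1G54050, a class III type, at 30.2% ± 12.3 against 70.2% ± 15.3 (exact permutation adjusted p 0.0431). The others past the threshold were AT1G53540, AT1G59860, HSP70, HSP90.2, HSP90.3, FES1A, ROF1 and HSFB2B, with differences of 20.7 to 37.2 percentage points. HSFB1 was the one tested member with a smaller share in TMMp, 54.1% against 48.9%, which did not pass. HSP21, AT1G52560 and HSFA7B were in under 5% of all cells and were not tested. The smallest p that the 792 splits allow is 0.00126. Leaving out 1 plate leaves fewer splits, and so a higher smallest p. It gave 0 to 14 members and 0 to 2609 of all genes called. The members were 0 without ML1-5, 6 without ML1 and 4 to 5 without any 1 of TMM-2 to TMM7. Without the cells high in mesophyll genes 2 members had a larger share and 0 a smaller one (background 1.77% and 3.81%).

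**Figure D4:**
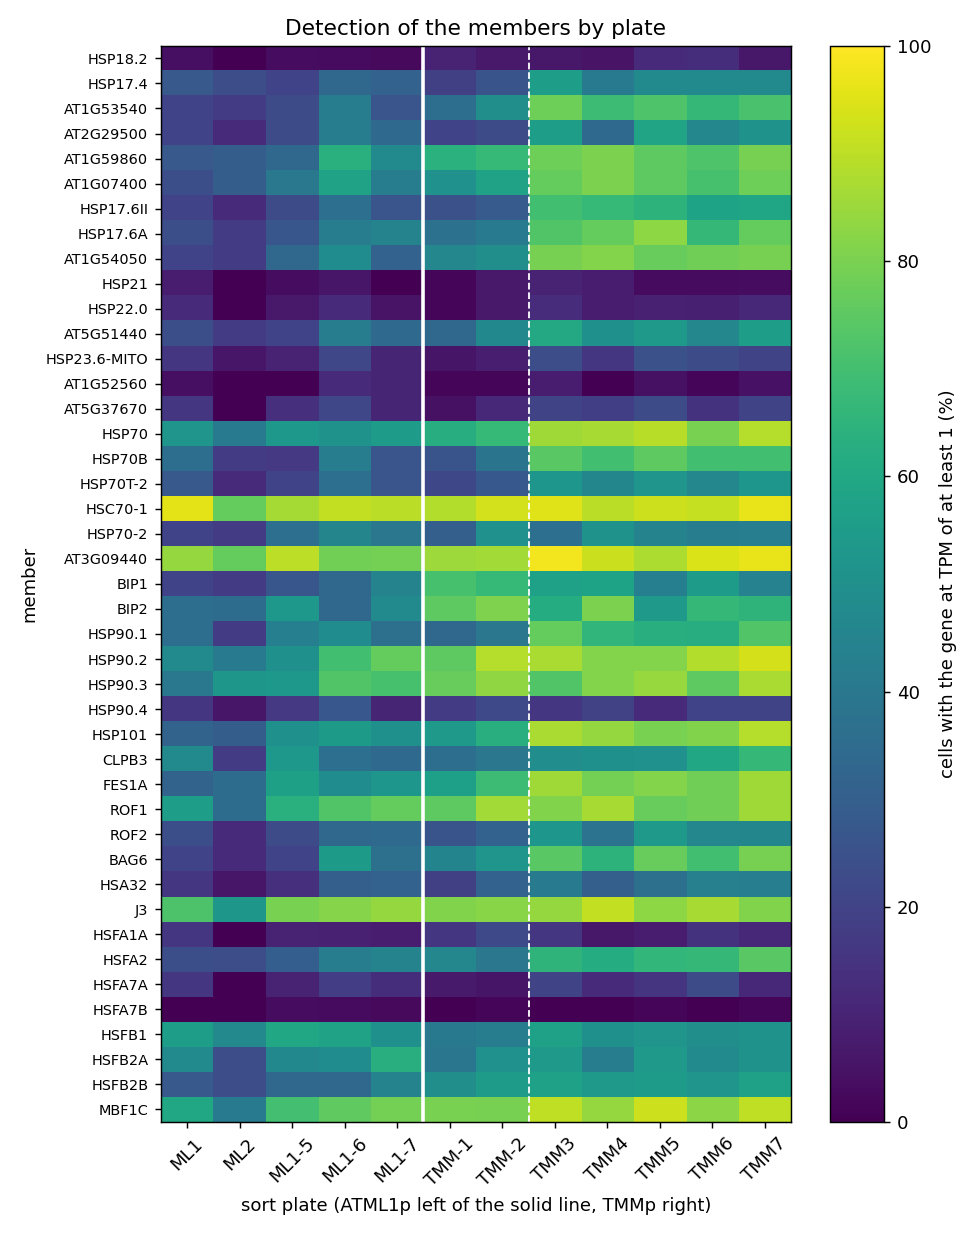
Share of the cells of each sort plate with each of the 43 members at a TPM of at least 1, in colour, with ATML1p plates left of the solid line and the pools of TMMp split by the dashed line. Inducible members such as AT1G54050 and HSP101 are detected more often on TMM3 to TMM7, and HSC70-1 and AT3G09440 are detected in most cells of every plate.

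The pools of the TMMp line also differed from each other, and 14 inducible members were among the 52 genes called. Over the 2 plates of pool 1 and 5 plates of pool 2, 14 members were higher in pool 2 and 0 lower (limma, adjusted p under 0.05), against 0.167% of 18604 genes higher and 0.113% lower. Each side was 1 pool, so these p-values are set against the spread between plates of the same pool. They cannot show whether further pools of the line would differ in this way. All 14 were inducible: 8 small HSPs, HSP70B, HSP90.1, ROF2, BAG6, HSA32 and HSFA2. HSP17.6II, a class II small HSP, averaged 792 and 1031 TPM on TMM-1 and TMM-2 and 4704, 3456, 4675, 4188 and 3641 TPM on TMM3 to TMM7, without overlap, and was higher by 2.18 ± 0.18 log2 (SE, limma adjusted p 0.000187). HSP90.1 averaged 875 and 810 TPM against 2047 to 3155 TPM (1.62 ± 0.19 log2, limma adjusted p 0.00214). HSFA2 averaged 176 and 159 TPM against 322 to 474 TPM (1.32 ± 0.20 log2, limma adjusted p 0.0151). These groups of plates did not overlap for any of these members. That adds no support, since the members were called on the same plate means and no share over all genes is given.

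The other called differences were 2.23 log2 for HSP23.6-MITO, a mitochondrial small HSP, 2.04 for AT2G29500, 1.94 for HSP17.4, 1.71 for HSA32, 1.69 for AT1G54050, 1.62 for HSP17.6A, 1.53 for AT1G07400, 1.51 for ROF2, 1.49 for AT1G53540, 1.42 for HSP70B and 0.88 for BAG6. HSP70 (0.70 log2), HSP101 (0.80 log2) and MBF1C (0.82 log2) missed the threshold. The median difference was 1.35 log2 for inducible and 0.38 for constitutive members, against -0.21 for all genes. BIP1 (-0.51 log2) and BIP2 (-0.58 log2) had lower means in pool 2. Median genes detected per plate were 3067 and 3664 in pool 1 and 2455 to 2756 in pool 2, and cells high in mesophyll genes were 31.9 and 35.6% of the pool 1 plates and 13.8 to 19.0% of the pool 2 plates. Their part in the result was not tested beyond leaving those cells out, after which 8 members were called with genes filtered again. With the gene set unchanged 0 members were called, and 0 of all genes, so that fit says nothing of the members in particular. Leaving out TMM-1 or TMM-2 kept 1 plate in pool 1, and each such fit lost some or all of these calls.

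Within TMMp plates, cells with PDF1 had less of nearly every tested inducible member and more of the ER chaperones. The 278 cells with PDF1 at a TPM of at least 1 were compared with the 200 others of the same plate, with limma on the 7 plate differences of mean log2(TPM + 1). Of 38 members tested, 27 were lower and 3 higher in PDF1 cells, against a background of 8.30% of 9422 genes lower and 50.8% higher. All 27 tested inducible members were below 0 and 25 passed, ROF1 and HSFB2B being the others, with a median of -2.51 log2 against 0.51 for all genes. HSP18.2, HSP21, HSP22.0, AT1G52560 and HSFA7B were in under 10% of TMMp cells and were not tested within plates.

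The small HSP AT1G53540 fell most: its plate means were 429 to 4476 TPM (median 3278) with PDF1 and 3183 to 9245 TPM (median 5858) without, and it fell by 3.79 ± 0.35 log2, in 7 of 7 plates (limma adjusted p 3.8e-14). HSP90.1 had plate means of 28.7 to 2213 TPM (median 1364) with PDF1 and 1401 to 4743 TPM (median 3592) without, and fell by 3.72 ± 0.39 log2 in 7 of 7 plates (limma adjusted p 3.2e-12). The SE is moderated by limma over genes, and the 7 plate differences of HSP90.1 had an SD of 1.59 log2. The ranges of plate means overlapped for both genes although the difference within every plate had the same sign. The other chaperones past the threshold had log2 differences of -3.35 for HSP17.6II, -3.13 for ROF2, a peptidyl-prolyl isomerase that binds HSP90, -3.00 for AT2G29500, -2.89 for AT1G07400, -2.86 for BAG6, -2.84 for HSP70, -2.70 for HSP17.6A, -2.63 for HSP101, -2.59 for AT5G51440, -2.51 for FES1A and -2.30 for AT1G59860. Smaller ones were -2.24 for HSP70B, -2.23 for HSP70T-2, -2.21 for HSP17.4, -1.77 for HSA32, -1.48 for HSP23.6-MITO, -1.04 for AT1G54050 and -0.96 for AT5G37670. Regulators moved with them, at -2.84 log2 for HSFB1, -2.70 for HSFB2A, -2.26 for MBF1C, -1.90 for HSFA2 and -1.05 for HSFA7A. Factors usually described as activators and as repressors of the response were therefore both among those that fell.

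The constitutive members divided. BIP2 had plate means of 293 to 601 TPM (median 399) with PDF1 and 75.5 to 229 TPM (median 161) without, without overlap, and was higher by 3.12 ± 0.36 log2 in 7 of 7 plates (limma adjusted p 9.3e-11). BIP1 was higher by 2.65 ± 0.35 log2, also in 7 of 7 plates, and HSC70-1 by 0.70 ± 0.29 log2 in 6 of 7. AT3G09440 fell by 1.304 log2 and J3, a DnaJ-type co-chaperone of HSP70, by 0.78 log2. HSP70-2, HSP90.2, HSP90.3, HSP90.4, CLPB3 and HSFA1A lay between -0.68 and 0.41 log2 and did not pass. Of 10 other ER chaperone and unfolded protein response genes tested, 8 were higher and 2 lower, where 50.8% of all genes were higher and 8.30% lower.

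**Figure D5:**
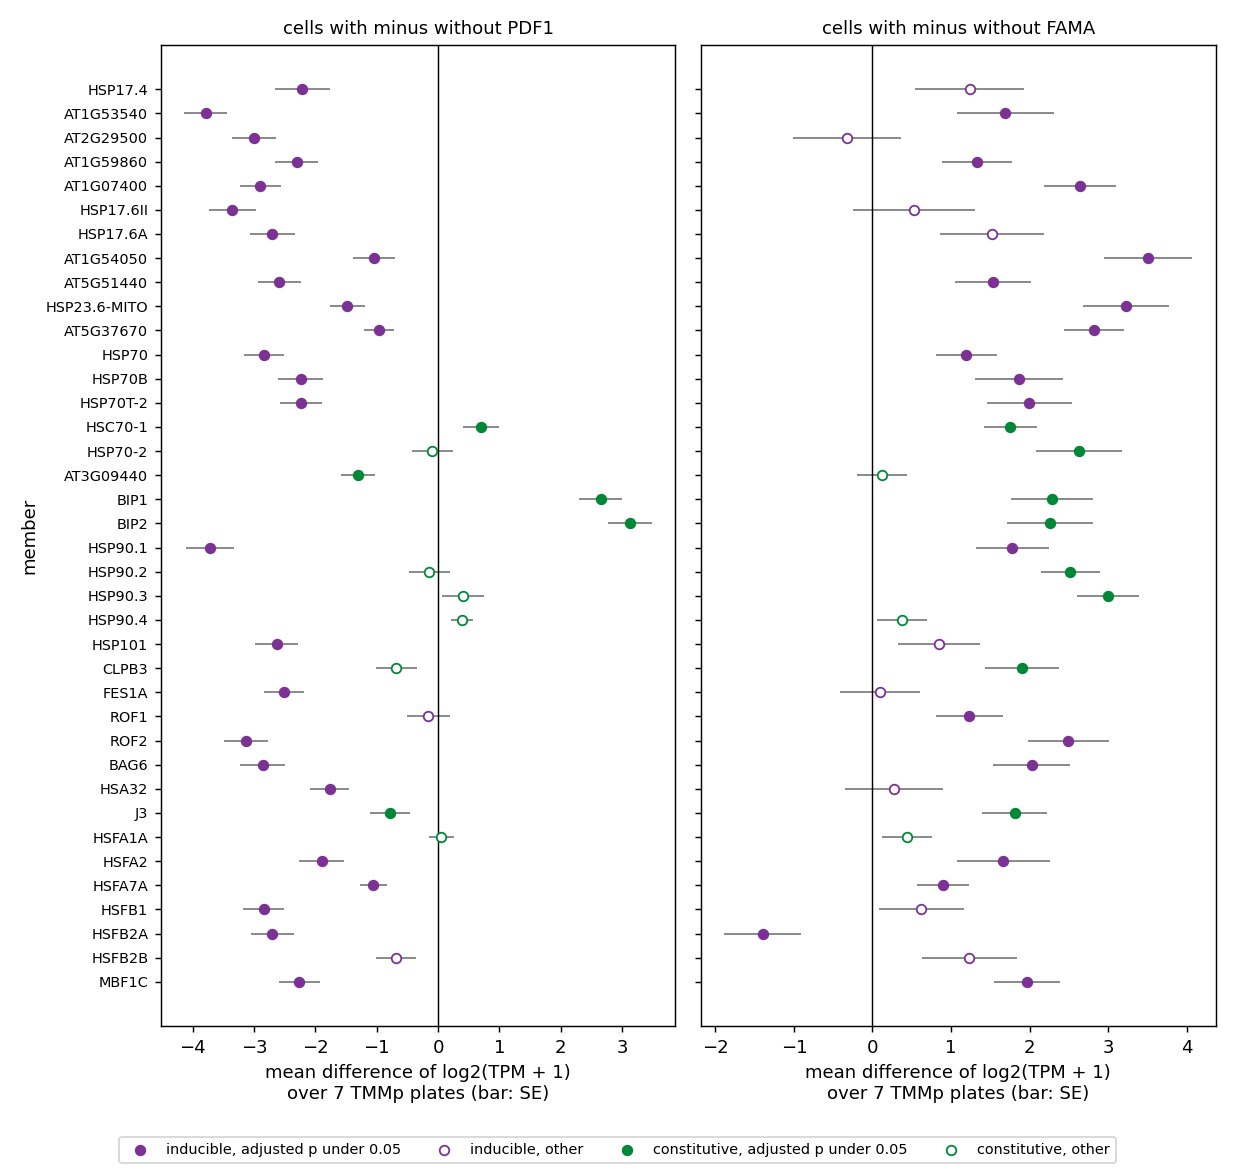
Mean difference of log2(TPM + 1) over the 7 TMMp plates, with its SE, between cells with and without PDF1 (left) and cells with and without FAMA (right) for the 38 tested members, filled where the adjusted p was under 0.05. Most inducible members lie below 0 in the left panel, where BIP1 and BIP2 are the highest, and above 0 in the right panel, where HSFB2A is the lowest.

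Cells with PDF1 also had more genes detected, with plate medians of 2802 to 4623 against 2135 to 2760, and higher summed mesophyll levels, with plate medians of 2250 to 3501 TPM against 806 to 1260 TPM. With log2 of genes detected as a covariate, 31 members were lower and 2 higher (background 13.2% lower, 15.6% higher), and HSC70-1 changed sign. With the cells high in mesophyll genes left out, 25 members were lower and 2 higher (background 6.79% lower, 33.7% higher). In pool 1 alone 20 members were lower and 2 higher (background 5.37% and 36.9%), and in pool 2 alone 27 and 2 (background 6.38% and 39.0%).

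FAMA, a transcription factor of guard cell differentiation, marked 55 TMMp cells, in which most members were higher. These were only 4 to 12 cells on each plate, against 54 to 64 others, so plate means with FAMA rest on few cells. In the same within-plate comparison 25 of 38 members were higher and 1 lower, against a background of 33.8% of 9422 genes higher and 6.56% lower. By class, 17 of 27 inducible and 8 of 11 constitutive members were higher, with medians of 1.52 and 1.90 log2 against 0.63 for all genes. AT1G54050 had plate means of 3000 to 8777 TPM (median 5202) with FAMA and 683 to 4323 TPM (median 3137) without, with some overlap, and was higher by 3.51 ± 0.56 log2 in 6 of 7 plates (limma adjusted p 0.00012). HSP90.3 had plate means of 557 to 1126 TPM (median 650) with FAMA and 178 to 465.97 TPM (median 316) without, without overlap, and was higher by 2.99 ± 0.40 log2 in 7 of 7 plates (limma adjusted p 2.1e-05). AT5G37670 was detected in 40.0% of FAMA cells and 12.8% of the others and was higher by 2.82 ± 0.38 log2 in 7 of 7 plates (limma adjusted p 2.3e-05).

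HSFB2A was the exception, with plate means of 0 to 226 TPM (median 112) with FAMA and 134 to 186 TPM (median 166) without, and fell by 1.39 ± 0.49 log2 in 6 of 7 plates (limma adjusted p 0.0309). The other members that rose were HSP23.6-MITO (3.22 log2), AT1G07400 (2.64), HSP70-2 (2.63), HSP90.2 (2.51), ROF2 (2.49), BIP1 (2.28), BIP2 (2.26), BAG6 (2.03), HSP70T-2 (2.00), MBF1C (1.97), CLPB3 (1.90), HSP70B (1.86), J3 (1.81), HSP90.1 (1.78), HSC70-1 (1.75), AT1G53540 (1.69), HSFA2 (1.67), AT5G51440 (1.53), AT1G59860 (1.33), ROF1 (1.23), HSP70 (1.195) and HSFA7A (0.90). HSP101 (0.85 log2), HSA32 (0.27 log2), FES1A (0.09 log2) and HSFA1A (0.44 log2) did not pass.

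FAMA cells also had more genes detected, with a median of 4308 against 2636, and 49.1% against 18.4% of them were high in mesophyll genes. With genes detected as a covariate 14 members were higher and 0 lower (background 12.9% higher, 11.3% lower), and without the cells high in mesophyll genes 10 were higher and 0 lower (background 8.19% higher, 1.37% lower). On the log2 of mean TPM in place of the mean of log2, 12 were higher and 1 lower (background 9.83% higher, 15.6% lower), and HSP70, HSP70B and BAG6 changed sign. The FAMA and PDF1 comparisons used the same cells: the median summed inducible TPM was 85026 TPM in 32 TMMp cells with FAMA only, 10213 TPM in 23 with both, 9277 TPM in 255 with PDF1 only and 59664 TPM in 168 with neither. In TMMp cells with PDF1 the plate median of this sum was below that of the other cells in 7 of 7 plates, and with FAMA it was above in 6 of 7. In ATML1p, 15 cells with FAMA only had a median of 80349 TPM, with plate medians of 9864 to 111762 TPM on 3 plates, and 113 cells with neither gene had 443 TPM. Over all ATML1p plates together the median was 5061 TPM in 15 cells with PDF1 and 733 TPM in 128 without. Within plates the gap was much smaller, on the 2 plates with at least 3 PDF1 cells. It was 5169 against 4410 TPM on ML1-6 and 1357 against 1328 TPM on ML1-7.

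Constitutive and inducible members differed in how they went with the number of genes detected in a cell. Between cells above the plate median of genes detected and the rest, 17 of 38 members were higher and 1 lower, against a background of 78.1% of 9423 genes higher and 3.20% lower, so the share of members higher was below that of all genes. Of the constitutive members 9 of 11 were higher (median 1.52 log2), and of the inducible ones 8 of 27 (median 0.12 log2), against a median of 0.95 for all genes. BIP1 (2.89 ± 0.34 log2) and BIP2 (2.79 ± 0.35 log2) were highest, each in 7 of 7 plates (limma adjusted p 1.6e-10 and 7.4e-10), followed by HSP90.3 (2.11), HSC70-1 (1.80), CLPB3 (1.54), J3 (1.52), HSP90.2 (1.35), HSP70-2 (0.84) and HSFA1A (0.63). The inducible members that were higher were AT1G54050 (1.90 log2), HSP23.6-MITO (1.14), ROF1 (1.11), HSFB2B (1.08), HSP17.4 (1.00), AT5G37670 (0.83), HSA32 (0.83) and HSP70T-2 (0.73). HSFB2A fell by 1.41 ± 0.36 log2 (limma adjusted p 0.00044). HSP70 had -0.66 log2 and MBF1C -0.44 log2, neither past the threshold. On the log2 of mean TPM, 4 members were higher and 13 lower (background 30.3% higher, 6.75% lower), so the direction of the inducible members in this comparison depended on the scale.

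Over single cells within plates, the summed inducible TPM had a mean rank correlation with genes detected of 0.38 over 5 ATML1p plates and -0.11 over 7 TMMp plates. Without the cells high in mesophyll genes these were 0.62 and 0.04. With the summed TPM of the 11 constitutive members it was 0.71 in both lines. That sum leans on AT3G09440, the highest of its class, which averaged 1900 TPM over the ATML1p pools and 3176 TPM over the TMMp pools. Single pairs of an inducible and a constitutive member, BIP1 and BIP2 left out, had a median of 0.29 in TMMp. With the 15 mesophyll genes the correlation of the inducible sum was -0.63 in ATML1p and -0.47 in TMMp, below 0 on all 12 plates. With the brightness of the reporter channel at sorting (FITC area) it was 0.22 in ATML1p, above 0 on 5 of 5 plates, and -0.07 in TMMp, above 0 on 3 of 7. These values describe cells that share a plate and nearly the same TPM total.

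Of other genes of the pathway, 11 heat shock factors (median line difference 0.34 log2), 10 cytosolic chaperones (0.53), 13 organelle chaperones (0.27) and 4 other heat-responsive genes (0.82) were tested over pools, and 0 of these 38 genes passed with limma. Of 11 ER chaperone and unfolded protein response genes (median 1.26 log2) 1 was higher, CRT1A, an ER calcium-binding chaperone, with 182 and 281 TPM in ATML1p, against 870 and 800 TPM in TMMp (1.88 ± 0.32 log2, limma adjusted p 0.0322). Between the TMMp pools HOP3 was the 1 other pathway gene called, higher in pool 2 by 1.36 ± 0.21 log2 (limma adjusted p 0.0151). In PDF1 cells 11 of 13 organelle chaperones were higher and 1 lower, and of the other cytosolic chaperones 3 of 10 were higher and 4 lower, against 50.8% of all genes higher and 8.30% lower.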

How the data were processed

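Single cells sorted into plates were profiled with Smart-seq2, which reads whole transcripts and has no molecular identifiers, per the labels' protocols. The authors deposited TPM per gene and cell, and, per the file headers, log2 values of the sorter's scatter and fluorescence signals. The program that made the TPM is not given in the sources used here. Cell Ranger and TAIR10 are named in the submitters' processing notes, without saying for which samples. TPM keep no read depth, so the precision of a value was read from the spread between pools or plates, which may be technical since nothing says that pools came from separate plants. The 4 10X samples were not analysed here. No cell was removed, and no doublet caller could be run without counts.

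The 43 members, the lists of related and marker genes and the tests were chosen with earlier results of these data known. Pool or plate means were analysed as log2(TPM + 1) with limma 3.58.1 in R 4.3.3 (eBayes with trend), keeping genes whose mean TPM reached 1 in 2 or more units. This scale understates the change of low genes. Within TMMp plates the difference of mean log2(TPM + 1) between cell classes was tested against 0 over the 7 plates, for genes found in 10% or more of the TMMp cells. Each SE given with limma is moderated over genes, and can be smaller or larger than the spread of that gene between plates would give. Detection (a TPM of 1 or more) was compared between plates with a two-sided exact permutation test for genes in at least 5% of cells. All p-values were adjusted by Benjamini-Hochberg over all genes tested, with a threshold of 0.05, and the procedures were tested on simulated data. Names, windows and shared stretches of 50 bases came from TAIR10.1, which held 32548 of 32833 genes and all 43 members.

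Every member is accounted for. The members given values in the text were those past a threshold, the 2 largest and the smallest line differences in each role group, HSFA1A, HSFA2 and MBF1C, and others chosen after their values were seen. Alternatives covered the pseudocount, low-value filters, the unit and average, normalization, the replicate block, subsets of cells, and each pool or plate left out.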

Additional observations from a re-analysis of the deposited data

Results flagged for a closer look

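HSP70 was detected in 41.2% of the cells of ATML1p plate ML2, below the other 4 plates of the line, which lay between 51.5 and 55.3%; the gap is large for 5 plates. The median summed inducible TPM of plate ML1-6, 5061 TPM, stood above the other ATML1p plates at 286 to 1342 TPM. These were 2 of 90 groups of plates examined, and chance flags about 1 in 20.

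The mean within-plate rank correlations of the summed levels had opposite signs in the lines in every plate for 3 pairs of measures, a difference that was not tested. They were picked for this from all pairs of a summed level and a cell measure examined, most of which did not show it. For the inducible sum and the ER chaperones BIP1 and BIP2 the mean was 0.21 in ATML1p and -0.43 in TMMp (difference -0.65). For the inducible sum and PDF1 it was 0.13 and -0.46 (difference -0.59), with PDF1 in only 15 ATML1p cells. Without cells high in mesophyll genes the ATML1p value was -0.050, and without cells under 1000 genes the TMMp value was -0.52. For the constitutive sum and forward scatter height, a sorter signal related to cell size, it was 0.28 and -0.16 (difference -0.44).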

How the results depend on the processing

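Between lines over pools, 1 member was higher and 1 lower among 430 genes called. With a pseudocount of 0.1, 0 and 0 members and 153 genes were called. Without a filter on low values, or with TPM capped at the 99th percentile, 0 members and 0 genes were called, although 4015 and 3547 genes had an unadjusted limma p under 0.05. Mean log2 values over cells gave 18 higher and 0 lower (1001 genes), quantile normalization 2 higher (842 genes), and plates as the unit 27 and 0 (2786 genes). Plates without TMMp pool 1 gave 29 and 0 (1704 genes), plates without TMMp pool 2 gave 0 and 0 (201 genes), and pools without plate ML2 gave 0 higher. Without cells high in mesophyll genes 0 members were called, among 0 genes or, with genes filtered again, 30 genes. With the pool number as a replicate block 20 members were higher, among 1696 genes. The pools share only a number, with a correlation of their deviations between lines of 0.05 over all genes and 0.18 over members. Leaving out 1 pool, with the gene set unchanged or filtered again, gave 0 to 20 members higher, 0 to 1 lower and 0 to 4696 genes.

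For detection, leaving out cells high in mesophyll genes gave 2 members and 753 genes, and leaving out 1 plate 0 to 14 members higher, 0 lower and 0 to 2609 genes. Between TMMp pools a pseudocount of 0.1 gave 26 genes, no filter 8 members and 122 genes, mean log2 values 25 higher and 2 lower and 1998 genes, and leaving out cells high in mesophyll genes 0 members and 0 genes, or 8 members with genes filtered again. Leaving out 1 plate gave 0 to 16 members higher, 0 lower and 0 to 51 genes.

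For FAMA, genes detected as a covariate gave 14 higher, 0 lower and 2277 genes, and log2 of mean TPM 12 higher and 2394 genes, with HSP70 (-0.050), HSP70B (-0.084) and BAG6 (-0.000258) changing sign. Lower members were 0 with a filter at 1% of cells, among cells without PDF1, without cells high in mesophyll genes (10 higher, 901 genes), in pool 1 alone (2412 genes) and in pool 2 alone (13 higher, 2199 genes). Leaving out 1 plate gave 17 to 28 higher, 0 to 1 lower and 3037 to 3764 genes.

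For PDF1, the covariate gave 2720 genes and log2 of mean TPM 3466, with HSC70-1 at -0.40 and -0.021, and cells without FAMA gave 5 higher. Leaving out 1 plate gave 2 to 3 higher, 25 to 28 lower and 4974 to 5366 genes. For genes detected, cells at the upper against the lower end of genes detected gave 6 lower, a filter at 1% of cells 11644 genes, rescaling without the inducible members 3 lower, and log2 of mean TPM 4 higher, 13 lower and 3494 genes, with HSP17.4 (-0.26), ROF1 (-0.022) and HSFB2B (-0.23) changing sign. Leaving out 1 plate gave 13 to 19 higher, 1 to 6 lower and 7330 to 7551 genes. The cause of these changes was not tested. The number of pools and plates, 2 a line and 12 in all, and the unknown read depth limit the precision.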

Other observations

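The 5 genes with the lowest mean within-plate correlation with the summed inducible TPM over the 7 TMMp plates, of 9385 ranked, were AT3G41768 (18S ribosomal RNA, -0.58), AT4G16720 (-0.54), AT5G20290 (-0.54), AT1G15930 (-0.54) and AT1G09690 (-0.51). The sum of BIP1 and BIP2 had a mean within-plate correlation of 0.56 with the 7 epidermal genes, 0.51 with PDF1, 0.48 with the 15 mesophyll genes and 0.37 with TMM over the 7 TMMp plates.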
